A study of Homo sapiens with 12 samples.

Results

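The genes described here encode the bromodomain and extra-terminal (BET) proteins BRD2 and BRD3 and parts of the super elongation complex: the scaffolds AFF1 and AFF4, the elongation factors ELL and ELL2, the ELL partner EAF1, and the histone readers MLLT1 (ENL) and MLLT3 (AF9). They were chosen by name, with earlier results of these data known, and all 9 were found among 57096 human genes with a named row. Each gene was read from its row with the highest total count, and all 9 were among the 15831 genes that passed the filter on low counts. The cells were THP-1, a single human acute myeloid leukaemia line that carries a fusion of KMT2A (MLL) with MLLT3. One group received the vehicle DMSO and the other 3 groups received AZ5576, known as a CDK9 inhibitor, THZ531, known as a CDK12 and CDK13 inhibitor, or YKL5124, known as a CDK7 inhibitor. Treatment lasted 2 hours in every group, and all groups, the DMSO controls included, were given 1 mM 4-thiouridine for the last 10 minutes. The labels state no dose. Each of the 4 groups held 3 libraries of sequenced 3′ ends. The labels do not say that the libraries of a group came from separate cultures, so a p-value sets differences against the spread among libraries, and that spread could be technical only. Since the libraries are bulk samples, fewer cells with an RNA and less of that RNA per cell cannot be told apart.

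BET proteins bind acetylated histones through paired bromodomains and help to bring the kinase P-TEFb, made of CDK9 and a cyclin T, to chromatin. The super elongation complex is built on AFF1 or AFF4 and joins P-TEFb with an ELL protein, an EAF protein and a YEATS domain protein, MLLT1 or MLLT3, which reads acylated histones. Its subunits recur as fusion partners of KMT2A in acute leukaemia, and the fusion in THP-1 ends in the MLLT3 sequence. Reads at the 3′ end of MLLT3 can therefore come from the normal and the fused transcript alike, and these counts do not separate the 2 sources.

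A sequencing read in these libraries starts near the poly(A) tail, so the sequence that ends each mRNA is the place where its counts are expected. The 9 stretches below are shown because they mark the 3′ end that the report sets against upstream rows. They were read from the GENCODE v29 transcripts (GRCh38), 5′ to 3′ on the gene's strand, with the cleavage signal in capitals.
BRD2 (chr6:32981471-32981500, plus strand): tttttAATAAAgtaaatatgacttttgtaa
BRD3 (chr9:134030311-134030340, minus strand): ttcatAATAAAaagcaaaaaaaaaaaaaaa
AFF1 (chr4:87141014-87141038, plus strand): aaattAATAAAaatttcgagaaatc
AFF4 (chr5:132875379-132875405, minus strand): tctgtATTAAAgttactgaacactgta
ELL (chr19:18442663-18442688, minus strand): tctccAATAAAtttcactgaactgaa
ELL2 (chr5:95885098-95885124, minus strand): agttcAATAAAaatgttaactttgcaa
EAF1 (chr3:15442584-15442613, plus strand): atttaAATAAAagtgaaggtcagcaacaca
MLLT1 (chr19:6210379-6210407, minus strand): agtgaAATAAAgtcagatgggaaagcaga
MLLT3 (chr9:20341672-20341701, minus strand): aagagAATAAAatacattcagtttggtaaa
The last 50 bases of each transcript were searched on its own strand for AATAAA and for ATTAAA, and the match nearest the end is shown. AATAAA stood there in all 9 genes (in AFF4 ATTAAA is nearer the end), against 64.8% of 8033 protein-coding transcripts with a total of at least 120 counts. Either hexamer stood in 80.2% of those. A match is a description of the annotated end and was not tested as a site in use.

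After THZ531, 5 of the 9 genes (BRD2, EAF1, ELL2, MLLT1 and AFF4) rose and 3 (BRD3, MLLT3 and AFF1) fell against DMSO. Under AZ5576, 6 (BRD2, MLLT3, ELL, ELL2, EAF1 and AFF4) fell and none rose, and under YKL5124 2 (MLLT3 and ELL) fell and none rose. Calls are adjusted p-values under 0.05 from edgeR's quasi-likelihood test, with Benjamini-Hochberg adjustment over all 15831 genes, 3 libraries against 3. Libraries were scaled on the middle of the human genes (TMM). The THZ531 rises of AFF4, ELL2 and MLLT1 were not called with library size alone or with scaling to the added Drosophila RNA. With either of these scalings ELL was called lower under THZ531. Over all genes tested, 63.4% were called under THZ531, 30.4% higher and 32.9% lower. Under AZ5576, 41.7% were called, 18.6% higher and 23.1% lower. Under YKL5124, 20.8% were called, 7.25% higher and 13.5% lower. A call was thus common in this table, and under YKL5124 the members' share, 22.2%, lay near the share of all genes. The median log2 fold change of the 9 genes was -0.60 under AZ5576, 0.31 under THZ531 and -0.02 under YKL5124, beside 0.01, -0.00 and -0.00 for all genes. In each of these 16 calls the 3 libraries of the inhibitor lay wholly above or wholly below those of DMSO, as they did in 47.8% of all genes tested under AZ5576, 67% under THZ531 and 35.1% under YKL5124. The 3 comparisons share the same DMSO libraries.

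**Figure D1:**
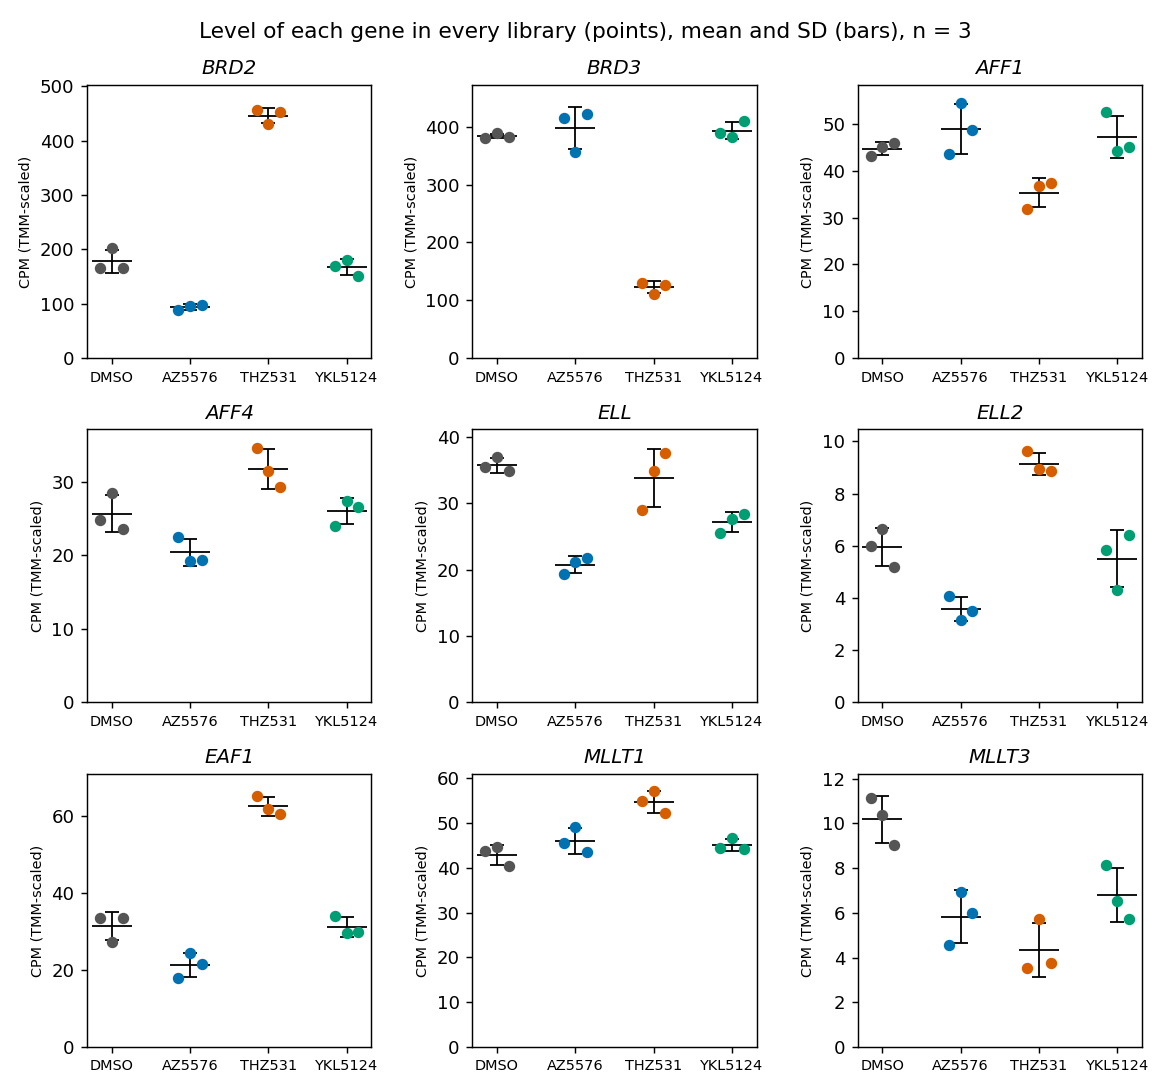
Level of each of the 9 genes in CPM (counts scaled to a common library size with TMM, linear axis from 0) in every library, with points for libraries and bars for the mean and SD of 3. BRD2 and EAF1 stand highest in THZ531 and lowest in AZ5576, BRD3 stands lowest in THZ531, and MLLT3 stands highest in DMSO.

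The libraries held 5048321 to 12743576 human counts. AZ5576 replicate 2 was the shallowest and stood apart from AZ5576 replicates 1 and 3 on the third principal component, at 29.58 against 4.13 and 2.15. Without it, 6 members were again called lower under AZ5576. All 10 myeloid markers had counts, and their summed level was 1977 to 2208 CPM in DMSO, 2123 to 2223 in YKL5124, 2510 to 2579 in AZ5576 and 2609 to 2619 in THZ531. Of the markers of other cell types, CD3E and HBB were at 0 in every library, and the 9 markers together reached 5.15 to 11.7 CPM per library. The part of these differences in the results was not tested. TMM scaling sets the middle of the human genes to no change. With library size alone, the median gene moved by -0.12 under AZ5576 and -0.29 under THZ531 (log2), and with scaling to the added Drosophila RNA by -0.17 and -0.37.

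BRD2, a BET protein that binds acetylated histone H4, moved in opposite directions under AZ5576 and THZ531. It stood at 165, 203 and 166 CPM in DMSO replicates 1 to 3 and at 456, 430 and 452 CPM in THZ531. It stood at 88.0, 95.7 and 97.0 CPM in AZ5576 and at 170, 180 and 151 CPM in YKL5124. The THZ531 libraries lay above, and the AZ5576 libraries below, those of DMSO and YKL5124, while YKL5124 and DMSO overlapped. BRD2 rose 2.51-fold under THZ531 (log2 fold change 1.33, SE 0.07, adjusted p = 1.08e-15, n = 3 against 3). It fell by 0.93 on the log2 scale under AZ5576 (SE 0.08, adjusted p = 5.18e-11). Under YKL5124 the log2 difference was -0.09, with a 95% interval of -0.24 to 0.06. The gene whose pattern over the 12 libraries was most like that of BRD2 was ID2 (Pearson's r = 0.99 of log2 CPM), which encodes an inhibitor of basic helix-loop-helix factors. Such likeness is a description, since the libraries share their 4 treatments.

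BRD3, the other BET gene, stood at 380, 389 and 383 CPM in DMSO and at 130, 110 and 127 CPM in THZ531. It stood at 415, 356 and 422 CPM in AZ5576 and at 389, 382 and 410 CPM in YKL5124. The THZ531 libraries lay far below all 9 others, which overlapped each other. BRD3 fell by 1.65 on the log2 scale under THZ531 (SE 0.07, adjusted p = 1.9e-18, n = 3 against 3), a level 3.14-fold lower. The log2 difference from DMSO was 0.05 under AZ5576 (95% interval -0.08 to 0.19) and 0.04 under YKL5124 (-0.10 to 0.17). The 2 BET genes thus went in opposite directions under THZ531. The gene most like BRD3 in pattern was OSBPL5 (r = 0.998), which encodes an oxysterol-binding protein relative. The last exon of BRD3 overlaps BRD3OS, counted at a mean of 8.47 CPM in DMSO and 6.08 in THZ531, and without the strand setting of the counts the reads of the 2 genes cannot be told apart.

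Of the scaffolds, AFF4 stood at 24.8, 28.5 and 23.6 CPM in DMSO and at 22.5, 19.2 and 19.4 CPM in AZ5576. It stood at 34.5, 31.4 and 29.2 CPM in THZ531 and at 24.0, 27.4 and 26.6 CPM in YKL5124. The AZ5576 libraries lay just below, and the THZ531 libraries just above, those of DMSO. AFF4 fell by 0.31 on the log2 scale under AZ5576 (SE 0.10, adjusted p = 0.0142) and rose by 0.31 under THZ531 (SE 0.10, adjusted p = 0.00657). The AZ5576 call was lost without DMSO replicate 2 (log2 fold change -0.24, adjusted p = 0.0817) or without AZ5576 replicate 3 (-0.26, adjusted p = 0.0842). The THZ531 call was lost without THZ531 replicate 1 (0.22, adjusted p = 0.0841) and with library size alone (0.02, adjusted p = 0.889), and the sign turned with Drosophila scaling (-0.05, adjusted p = 0.78). Under YKL5124 the difference was 0.03 (95% interval -0.17 to 0.23). The most alike gene was RNF20 (r = 0.93), a ubiquitin ligase of histone H2B.

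AFF1, the scaffold first known as the AF4 fusion partner of KMT2A, stood at 43.2, 45.0 and 46.1 CPM in DMSO. It stood at 31.8, 36.7 and 37.4 CPM in THZ531, 43.6, 54.5 and 48.8 CPM in AZ5576 and 52.5, 44.2 and 45.2 CPM in YKL5124. The THZ531 libraries lay below all 9 others, which overlapped. AFF1 fell by 0.34 on the log2 scale under THZ531 (SE 0.09, adjusted p = 0.00182, n = 3 against 3). The log2 difference was 0.11 under AZ5576 (95% interval -0.07 to 0.29) and 0.07 under YKL5124 (-0.10 to 0.25). The 2 scaffolds went in opposite directions under THZ531, and this opposition did not hold with library size alone or Drosophila scaling, under which AFF4 had no call. The gene most like AFF1 was MORC2 (r = 0.959), an ATPase of chromatin silencing.

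ELL, which raises the elongation rate of RNA polymerase II, stood at 35.4, 37.0 and 34.8 CPM in DMSO and at 19.3, 21.2 and 21.7 CPM in AZ5576. It stood at 25.6, 27.6 and 28.5 CPM in YKL5124 and at 29.04, 34.9 and 37.7 CPM in THZ531. The AZ5576 libraries lay lowest and the YKL5124 libraries lay between them and DMSO, while THZ531 overlapped DMSO. ELL fell by 0.79 on the log2 scale under AZ5576 (SE 0.10, adjusted p = 8.56e-08) and by 0.39 under YKL5124 (SE 0.09, adjusted p = 0.00208). Under THZ531 the difference was -0.07 (95% interval -0.26 to 0.11). It became a fall with library size alone (-0.36, adjusted p = 0.000808) and with Drosophila scaling (-0.44, adjusted p = 0.00236). ZNF708, a zinc finger gene, was most like ELL in pattern (r = 0.961).

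ELL2, the relative of ELL that also drives immunoglobulin secretion in plasma cells, was among the least counted of the 9 genes. It stood at 6.00, 6.66 and 5.19 CPM in DMSO and at 4.07, 3.17 and 3.51 CPM in AZ5576. It stood at 9.64, 8.93 and 8.88 CPM in THZ531 and at 5.82, 4.29 and 6.41 CPM in YKL5124. These levels rest on 16 to 83 counts per library. The AZ5576 libraries lay below, and the THZ531 libraries above, all others, while YKL5124 and DMSO overlapped. ELL2 fell by 0.69 on the log2 scale under AZ5576 (SE 0.19, adjusted p = 0.00368) and rose by 0.62 under THZ531 (SE 0.16, adjusted p = 0.00121). The rise was not called with library size alone (0.33, adjusted p = 0.076) or with Drosophila scaling (0.27, adjusted p = 0.238). Under YKL5124 the difference was -0.10 (95% interval -0.45 to 0.24). PI4KAP2, a pseudogene of a lipid kinase, was most like ELL2 (r = 0.97). The processed pseudogene ELL2P1 held 108 counts in all 12 libraries together, against 735 for ELL2, and reads could be shared between them.

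EAF1, which binds ELL proteins and stimulates their activity, stood at 33.4, 27.3 and 33.4 CPM in DMSO and at 65.1, 61.8 and 60.4 CPM in THZ531. It stood at 18.0, 24.4 and 21.5 CPM in AZ5576 and at 34.1, 29.5 and 29.8 CPM in YKL5124. The order of groups was that of BRD2 and ELL2, with THZ531 above and AZ5576 below all other libraries. EAF1 rose 1.98-fold under THZ531 (log2 fold change 0.985, SE 0.09, adjusted p = 1.42e-10, n = 3 against 3). It fell by 0.60 on the log2 scale under AZ5576 (SE 0.10, adjusted p = 2.68e-05). Under YKL5124 the difference was -0.02 (95% interval -0.22 to 0.17). MNX1, a homeobox gene, was most like EAF1 (r = 0.983). The last exon of EAF1 overlaps METTL6, a tRNA methyltransferase gene counted at 4.19 CPM in DMSO and 2.39 in THZ531, and their reads cannot be told apart without the strand setting.

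MLLT1, the YEATS reader ENL on which several acute leukaemias depend, stood at 43.8, 44.6 and 40.3 CPM in DMSO. It stood at 55.0, 57.1 and 52.2 CPM in THZ531, 45.5, 49.1 and 43.5 CPM in AZ5576 and 44.5, 46.7 and 44.2 CPM in YKL5124. The THZ531 libraries lay above all 9 others, which overlapped. MLLT1 rose by 0.35 on the log2 scale under THZ531 (SE 0.08, adjusted p = 0.000198). The rise was not called with library size alone (0.06, adjusted p = 0.515) and was at -0.01 with Drosophila scaling (adjusted p = 0.957). The difference was 0.09 under AZ5576 (95% interval -0.07 to 0.25) and 0.07 under YKL5124 (-0.08 to 0.23). PCBD1, a pterin dehydratase gene, was most like MLLT1 (r = 0.961).

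MLLT3, the YEATS reader AF9 and the partner in the THP-1 fusion, fell under all 3 inhibitors. With TMM scaling it was the only one of the 9 genes to do so, while with library size alone or Drosophila scaling ELL was also called lower under all 3. It stood at 11.1, 10.4 and 9.04 CPM in DMSO and at 3.52, 5.74 and 3.74 CPM in THZ531. It stood at 4.55, 6.93 and 6.01 CPM in AZ5576 and at 8.12, 6.52 and 5.75 CPM in YKL5124. All 9 inhibitor libraries lay below the 3 DMSO libraries, and the inhibitor groups overlapped their neighbours. MLLT3 fell by 1.22 on the log2 scale under THZ531 (SE 0.19, adjusted p = 1.47e-06), by 0.86 under AZ5576 (SE 0.175, adjusted p = 0.000217) and by 0.60 under YKL5124 (SE 0.17, adjusted p = 0.00851). The counts were 27 to 150 per library. The YKL5124 call was lost without DMSO replicate 1 (-0.53, adjusted p = 0.0511) or without YKL5124 replicate 3 (-0.49, adjusted p = 0.0703). PHC3, a subunit of a Polycomb complex, was most like MLLT3 (r = 0.95).

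**Figure D2:**
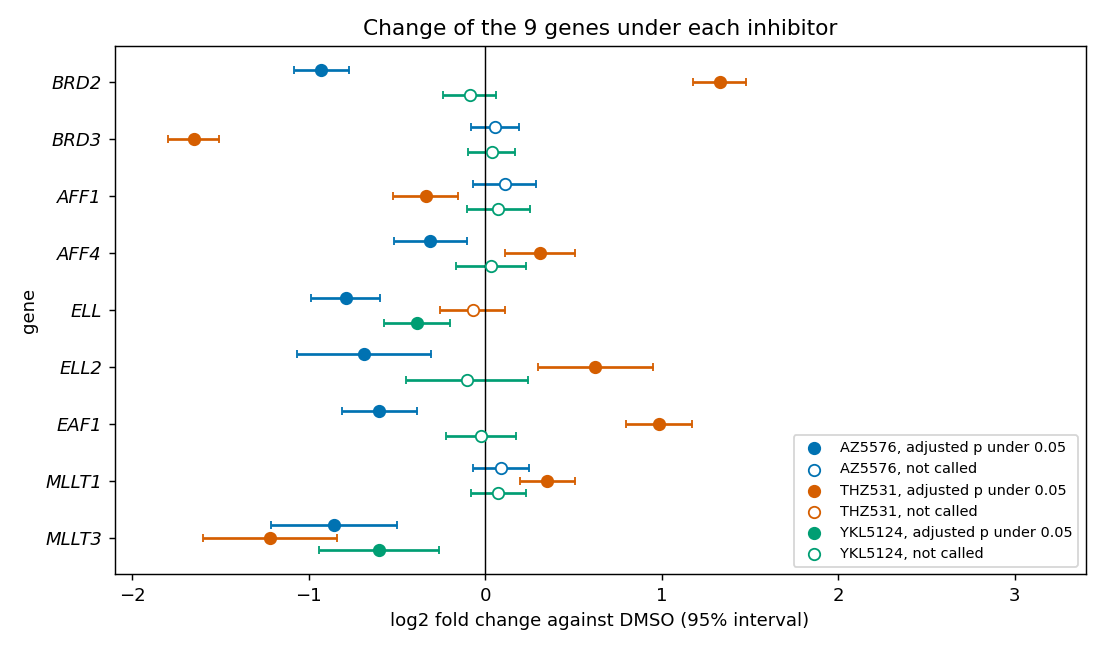
Log2 fold change of each gene against DMSO under each inhibitor (points), with 95% intervals (bars), filled where the adjusted p was under 0.05. BRD2, AFF4, ELL2 and EAF1 lie left of 0 under AZ5576 and right of 0 under THZ531, BRD3 lies at -1.65 under THZ531 alone, and MLLT3 lies left of 0 under all 3 inhibitors.

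The inhibitors were also compared with each other, without DMSO. Between AZ5576 and THZ531, 8 of 9 members differed, 2 higher and 6 lower in AZ5576, where 55% of all genes were called, 27.8% higher and 27.1% lower. The largest difference was that of BRD2, 4.78-fold lower in AZ5576 (log2 -2.26, SE 0.08, adjusted p = 1.24e-20), followed by BRD3, 3.27-fold higher in AZ5576 (1.71, SE 0.07, adjusted p = 8.64e-19). EAF1 was 3.00-fold lower in AZ5576 (-1.59, SE 0.10, adjusted p = 2.89e-14) and ELL2 2.48-fold lower (-1.31, SE 0.18, adjusted p = 3.72e-07). MLLT3 was the gene without a call, at 0.36 (95% interval -0.07 to 0.80). It was called higher in AZ5576 with library size alone (0.53, adjusted p = 0.036), with Drosophila scaling (0.56, adjusted p = 0.0245) and without THZ531 replicate 2 (0.66, adjusted p = 0.0218). MLLT1, lower in AZ5576 by 0.26 (adjusted p = 0.00528), lost its call with either of these scalings (-0.09 and -0.08) and without THZ531 replicate 2 (-0.19, adjusted p = 0.0784).

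Between THZ531 and YKL5124 all 9 members differed, 6 higher and 3 lower in THZ531, where 61% of all genes were called, 30.5% higher and 30.5% lower. The count was 6 with library size alone, where AFF4, ELL and MLLT1 lost their calls (0.006, 0.04 and 0.006, adjusted p = 0.965, 0.722 and 0.955). It was 5 with Drosophila scaling, where these genes and ELL2 (0.42, adjusted p = 0.0579) were not called. BRD2 was 2.67-fold and EAF1 2.01-fold higher in THZ531, and BRD3 was 3.22-fold lower (adjusted p = 3.04e-16, 1.44e-10 and 1.18e-18). ELL, higher in THZ531 by 0.32, lost its call without THZ531 replicate 3 (0.19, adjusted p = 0.122), and MLLT3, lower by 0.62, lost it without YKL5124 replicate 1 (-0.49, adjusted p = 0.0547). AFF4, higher by 0.28, lost it without THZ531 replicate 1 or 2 or YKL5124 replicate 1 (adjusted p = 0.172, 0.0688 and 0.0654). The AFF4 call was also lost with rows tested on their own (0.23, adjusted p = 0.056). Between AZ5576 and YKL5124, 5 members differed, all lower in AZ5576, where 15.8% of all genes were called, 6.23% higher and 9.6% lower. These were BRD2 (-0.84, SE 0.08, adjusted p = 3.21e-09), EAF1 (-0.58, SE 0.11), ELL (-0.40, SE 0.10), AFF4 (-0.34, SE 0.10) and ELL2 (-0.58, SE 0.19). The ELL2 call was near the threshold (adjusted p = 0.0366) and was lost in 9 alternatives: with no filter on low counts, with these 6 libraries alone, with DESeq2, with rows summed, with rows tested on their own, and without AZ5576 replicate 2 or 3 or YKL5124 replicate 1 or 3 (adjusted p from 0.0541 to 0.204). The ELL call was lost without AZ5576 replicate 1 (adjusted p = 0.0532), and the AFF4 call without AZ5576 replicate 3 or YKL5124 replicate 2 or 3 (adjusted p = 0.111, 0.0949 and 0.0684). The count was 3 without AZ5576 replicate 3 and 3 without YKL5124 replicate 3.

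**Figure D3:**
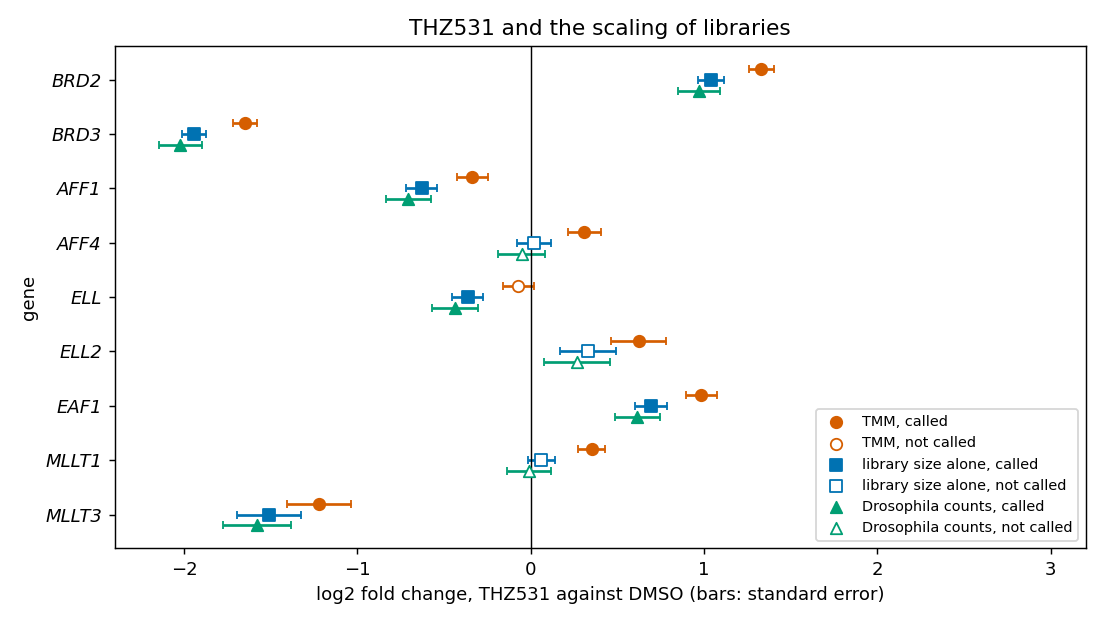
Log2 fold change of each gene, THZ531 against DMSO, under TMM scaling, library size alone and scaling to the Drosophila counts (bars: standard error, filled where called). BRD2 and EAF1 lie right of 0 and BRD3, AFF1 and MLLT3 left of 0 under all 3 scalings, while AFF4 and MLLT1 move to about 0.

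The 9 genes differ widely in length. BRD2 spans 12846 bp and EAF1 23281 bp, the 2 shortest, and these had the largest rises under THZ531. AFF1, 206053 bp, and MLLT3, 280879 bp, are the 2 longest, and both fell. BRD3, 38231 bp, is the third shortest and had the largest fall. MLLT1 (69570 bp), ELL2 (76974 bp), ELL (79465 bp) and AFF4 (88256 bp) lay between these in length, with log2 differences from -0.07 to 0.62. No test of length was made over 9 chosen genes.

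Rows of the table are stretches of transcripts, and for BRD2 and AFF4 the row with the highest total was not the annotated 3′ end. The BRD2 row used covers chr6:32977757-32978005, an exon that is coding in the main BRD2 mRNAs and is annotated as 3′ UTR of transcripts subject to nonsense-mediated decay. It held 26001 counts over the 12 libraries, against 14018 in the last exon's 3′ UTR at chr6:32980716-32981505. A second coding stretch, chr6:32978126-32978388, held 11934 counts, of which 11850 lay in its first part, up to position 32978197. The densest run of A in the spliced coding sequence across these exons crosses that position. It is shown because priming meant for the poly(A) tail can also occur at A-rich sequence inside an mRNA. Runs of 3 or more A are in capitals.
BRD2 (chr6:32978183-32978222, plus strand): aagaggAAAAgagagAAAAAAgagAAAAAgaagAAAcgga
This stretch held 27 A in 40 bases (67.5%), against 23.6% of A in the whole mRNA and at most 20 A in 40 bases elsewhere in it. For AFF4, the densest stretch of the coding exon around the row used held 23 A in 40 bases, against at most 22 elsewhere in that mRNA. The end of each mRNA was left out of this search, which was made for BRD2 and AFF4 only. The BRD3 window printed above closes with a run of A near the annotated 3′ end of that gene. The part of these stretches in the counts was not tested.

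The row used, the second coding stretch and the last row of BRD2 each fell under AZ5576 and rose under THZ531. The last 3′ UTR row had mean levels of 99.4 ± 6.16 CPM in DMSO, 85.9 ± 11.8 in YKL5124, 55.3 ± 14.5 in AZ5576 and 239.5 ± 13.8 in THZ531 (SD, n = 3). When every row was tested on its own, 29.2% of 46604 rows were called under AZ5576, 52.9% under THZ531 and 12.5% under YKL5124. The last BRD2 row fell by 0.90 on the log2 scale under AZ5576 (SE 0.11, adjusted p = 2.84e-08) and rose by 1.22 under THZ531 (SE 0.10, adjusted p = 1e-12). Its difference was -0.22 under YKL5124 (adjusted p = 0.168). The row used held 172% to 191% of the last row's counts in DMSO, 172% to 246% in YKL5124, 133% to 204% in AZ5576 and 173% to 202% in THZ531, so the groups overlapped. The second coding stretch held 71.3% to 77.7% in DMSO and 83.6% to 102% in THZ531, which did not overlap (exact two-sided permutation test, p = 0.1, the smallest that 3 against 3 libraries allow). Under THZ531 it rose by 1.499 (log2, SE 0.08, adjusted p = 2.42e-17). Of the stretches with fewer counts, chr6:32976250-32976464 and chr6:32980342-32980464, both coding in other BRD2 transcripts, rose under THZ531 from means of 2.28 and 3.02 CPM to 6.85 and 8.32 (log2 1.54 and 1.39, adjusted p = 1.49e-06 and 6.35e-06). Neither was called under AZ5576 (adjusted p = 0.0966 and 0.292). The other BRD2 rows with 5 CPM or more in a group overlap those given.

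**Figure D4:**
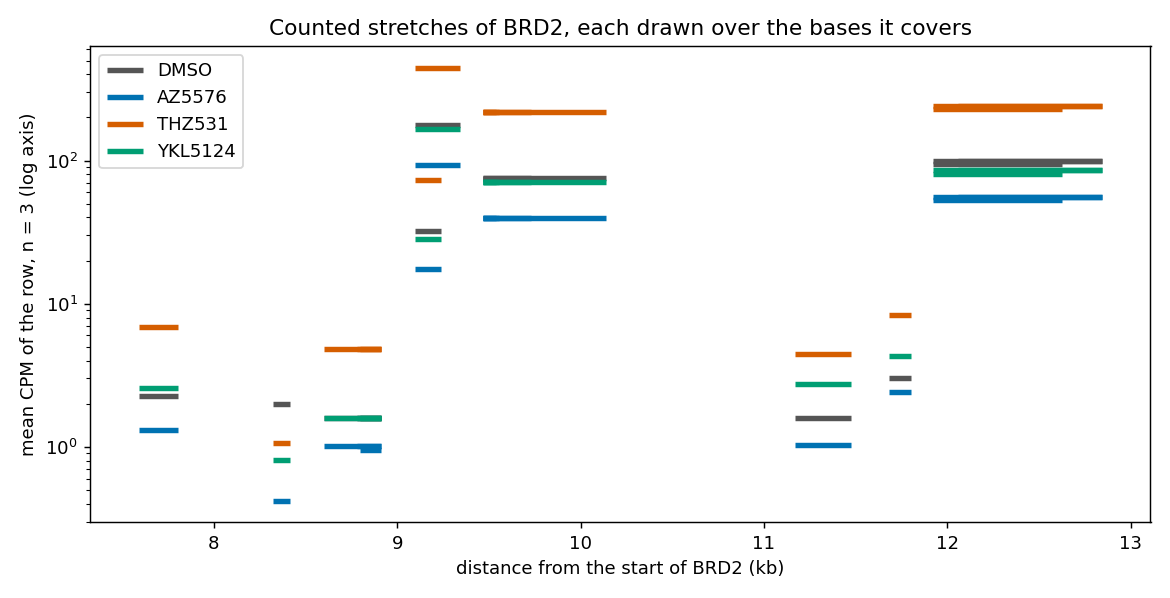
Mean CPM (log axis, n = 3) of each counted stretch of BRD2 in the 4 groups, drawn over the bases it covers, by distance from the start of the gene in kb. The stretches at about 9 kb and at the end of the gene show the same order, THZ531 highest and AZ5576 lowest.

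AFF4 differed by row. The row used covers chr5:132896811-132897240, inside the coding sequence, and held 3179 counts, against 1857 for the last 3′ UTR row at chr5:132875379-132881061. The last row stood at 15.1 ± 1.49 CPM in DMSO, 16.4 ± 0.64 in YKL5124, 13.4 ± 3.68 in AZ5576 and 16.4 ± 0.62 in THZ531 (SD, n = 3). It was called under no inhibitor (adjusted p = 0.142 for AZ5576, 0.703 for THZ531 and 0.66 for YKL5124 by edgeR). With the highest row of a protein-coding transcript in place of the row used, AFF4 thus lost both its calls against DMSO (AZ5576 -0.265, adjusted p = 0.107, and THZ531 0.12, adjusted p = 0.429). AFF4 also lost its calls for AZ5576 against YKL5124 (-0.376, adjusted p = 0.0534) and for THZ531 against YKL5124 (0.008, adjusted p = 0.963). That alternative was chosen after seeing where these rows lie. A shorter AFF4 mRNA ends at chr5:132891817-132892100. Its row stood at 6.97, 6.19 and 6.29 CPM in DMSO and at 3.36, 4.56 and 3.09 CPM in AZ5576. It stood at 10.9, 10.9 and 8.98 CPM in THZ531 and at 6.30, 8.20 and 4.66 CPM in YKL5124. AZ5576 lay below and THZ531 above DMSO without overlap. It fell by 0.91 on the log2 scale under AZ5576 (SE 0.20, adjusted p = 0.000783) and rose by 0.61 under THZ531 (SE 0.17, adjusted p = 0.00313).

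The ratio of an upstream row to the last row of the same gene is taken within a library and does not depend on scaling between libraries. For 7 such pairs in BRD2, BRD3, AFF1, AFF4 and ELL under 3 inhibitors, 21 comparisons in all, exact two-sided permutation tests could not go below p = 0.1, so none can pass 0.05. The row of the shorter AFF4 mRNA held 37.4% to 48.7% of the last row's counts in DMSO, 25.8% to 30.0% in AZ5576 and 56.4% to 67.7% in THZ531, and neither inhibitor overlapped DMSO (exact p = 0.1 each). It held 27.3% to 51.8% in YKL5124, which overlapped DMSO.

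In AFF1 an upstream row rose under THZ531 while the last row fell. This row, chr4:87046695-87048049, is the end of a transcript with a retained intron and is partly coding in other AFF1 transcripts. It stood at 3.26, 3.43 and 2.91 CPM in DMSO and at 7.94, 6.29 and 7.49 CPM in THZ531. The THZ531 libraries lay above all others, and the row rose by 1.12 (log2, SE 0.20, adjusted p = 1.34e-05), while the last row fell by 0.39 (SE 0.09, adjusted p = 0.000583). The upstream row held 6.31% to 7.61% of the last row's counts in DMSO and 17.1% to 25.0% in THZ531, against 4.95% to 6.55% in AZ5576 and 5.06% to 7% in YKL5124. Of these, only THZ531 had all libraries above DMSO (exact p = 0.1).

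In ELL the row at the start of the last exon, chr19:18444516-18444868, which is partly coding and overlaps the last row, stood at 2.30, 1.81 and 1.97 CPM in DMSO. It stood at 5.86, 6.62 and 9.30 CPM in THZ531, above all other libraries. It rose by 1.79 on the log2 scale under THZ531 (SE 0.23, adjusted p = 4.69e-08), where the last row had a difference of -0.13 (adjusted p = 0.238). Relative to the last row it held 4.88% to 6.49% in DMSO, 6.76% to 11.5% in YKL5124, 7.47% to 8.08% in AZ5576 and 19.2% to 24.9% in THZ531. Each inhibitor lay above DMSO without overlap (exact p = 0.1 each). The upstream row itself was not called by edgeR under AZ5576 (log2 -0.36, adjusted p = 0.392) or YKL5124 (0.33, adjusted p = 0.487). The last row fell by 0.80 under AZ5576 (adjusted p = 8.8e-08) and by 0.40 under YKL5124 (adjusted p = 0.00332). In AZ5576 replicates 1 to 3 the upstream row held only 18, 8 and 21 counts. In BRD3 the row of an earlier 3′ end, chr9:134036028-134036566, held 3.80% to 4.38% in DMSO and 4.05% to 5.12% in THZ531, which overlapped. It fell under THZ531 by 1.53 (SE 0.16, adjusted p = 2.83e-10), beside a fall of 1.70 in the last row (SE 0.07, adjusted p = 7.78e-20). In MLLT3 a second row, chr9:20345077-20346574, overlaps the last row and fell like it, by 0.81 under AZ5576 (adjusted p = 0.0011), 1.25 under THZ531 (adjusted p = 2.36e-06) and 0.65 under YKL5124 (adjusted p = 0.0128).

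**Figure D5:**
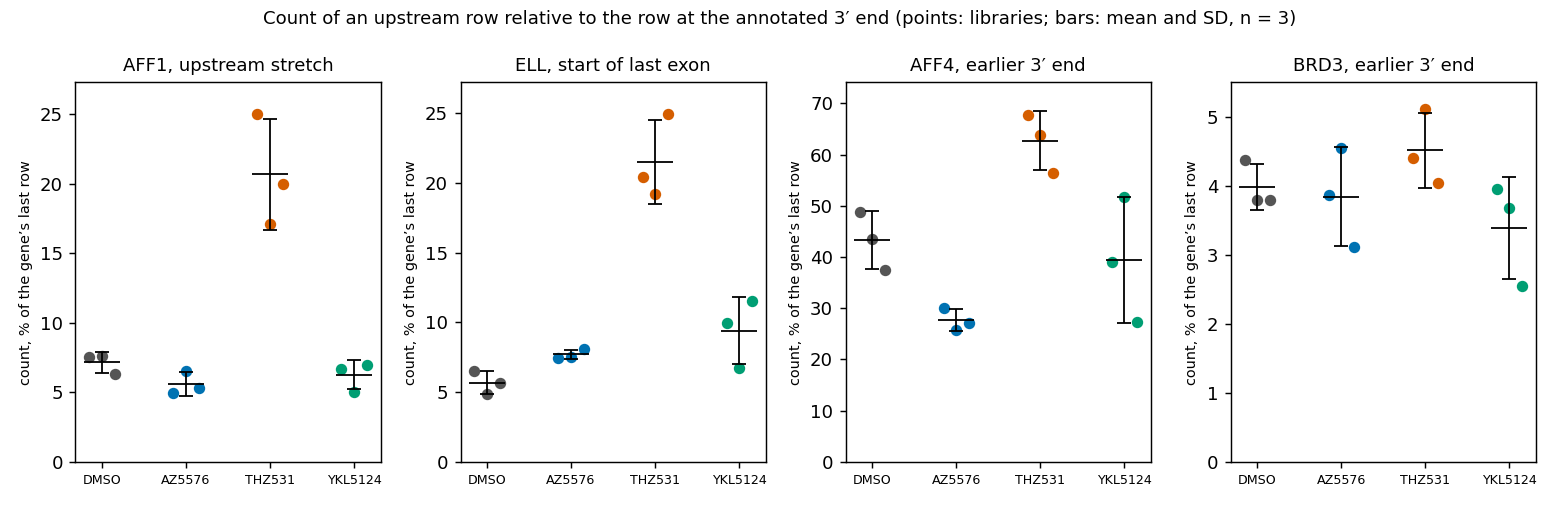
Counts of an upstream row as a percent of the gene's last row, in every library (points; bars: mean and SD, n = 3) for AFF1, ELL, AFF4 and BRD3. AFF1 reaches 17.1% to 25.0% and ELL 19.2% to 24.9% in THZ531, AFF4 is lower in AZ5576 and higher in THZ531 than in DMSO, and BRD3 overlaps between THZ531 and DMSO.

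Genes that work with these 9 were counted from lists of known complexes. Their counts stand beside calls in 41.7% of all genes under AZ5576, 63.4% under THZ531 and 20.8% under YKL5124. With Drosophila scaling no gene of these lists was called higher under AZ5576 or YKL5124. Of 7 genes of P-TEFb and the 7SK complex, which stores P-TEFb in an inactive form, 4 fell and none rose under AZ5576, 3 rose and 3 fell under THZ531 (2 and 4 with Drosophila scaling), and 3 fell and none rose under YKL5124. The median log2 fold changes were -0.25 under AZ5576, -0.22 under THZ531 and -0.145 under YKL5124. HEXIM1, an inhibitor that holds P-TEFb inactive, stood at a mean of 34.4 CPM in DMSO, 24.5 in YKL5124, 11.6 in AZ5576 and 153 in THZ531. It fell by 1.57 on the log2 scale under AZ5576 (SE 0.09, adjusted p = 2.69e-14), rose by 2.15 under THZ531 (SE 0.07, adjusted p = 8.44e-21) and fell by 0.48 under YKL5124 (SE 0.08, adjusted p = 4.23e-05). MEPCE, which caps 7SK RNA, fell by 2.00, 0.98 and 0.93 under the 3 inhibitors in that order (SE 0.08, 0.08 and 0.07, adjusted p = 4.2e-18, 1.85e-12 and 5.27e-11). HEXIM2, the relative of HEXIM1, held only 214 counts in all 12 libraries together. It fell by 3.46 under THZ531 (SE 0.48, adjusted p = 2.51e-07), from a mean of 2.67 CPM in DMSO to 0.22.

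Of 7 other genes of the same families, 6 were tested and BRDT had no count. Under THZ531 4 of the 6 fell and none rose, under AZ5576 3 fell and 2 rose (2 and 1 without DMSO replicate 1), and under YKL5124 2 fell and 1 rose. YEATS2, a YEATS reader of the ATAC acetyltransferase complex, fell by 2.09 under THZ531 (SE 0.15, adjusted p = 2.34e-13). AFF3, a relative of AFF1, fell by 0.76 under THZ531 (SE 0.14, adjusted p = 2.51e-05), with a log2 rise of 0.47 under AZ5576 (SE 0.12, adjusted p = 0.00249) that was not called with Drosophila scaling (0.285, adjusted p = 0.142). Its rise of 0.40 under YKL5124 (adjusted p = 0.0168) was not called with that scaling or without DMSO replicate 2 or YKL5124 replicate 1 (0.34 and 0.27). YEATS4, a reader shared by the SRCAP and TIP60 complexes, fell by 0.66 under AZ5576 (SE 0.11, adjusted p = 1.07e-05) and by 0.63 under YKL5124 (SE 0.105, adjusted p = 3.38e-05).

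The little elongation complex carries ELL proteins to small nuclear RNA genes. All 4 of its genes tested fell under THZ531, with a median of -1.14, also with library size alone and with Drosophila scaling. ZC3H8 fell by 1.69 (SE 0.16, adjusted p = 2.96e-10) and ICE2 by 0.88 (SE 0.10, adjusted p = 1.56e-08). Under AZ5576 2 of the 4 fell, USPL1 by 1.04 (SE 0.20, adjusted p = 0.000117) and ZC3H8 by 0.44 (SE 0.14, adjusted p = 0.0114), the latter not called without AZ5576 replicate 1 or 3. Under YKL5124 2 fell, ICE2 by 0.36 (SE 0.10, adjusted p = 0.00665) and USPL1 by 0.53 (SE 0.185, adjusted p = 0.0405), and the USPL1 call was lost with DESeq2, with RLE scaling, with rows summed, with these 6 libraries alone and in 5 leave-one-out fits.

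Of 12 genes of DSIF, NELF and the PAF1 complex, which act in pausing or elongation of RNA polymerase II, 11 were tested. SKI8 was not found under that symbol among the genes used. Of the 11, 7 rose and none fell under THZ531. The counts became 3 higher and 4 lower with library size alone and 1 higher and 4 lower with Drosophila scaling. RTF1 rose by 0.63 (SE 0.07, adjusted p = 5.06e-09) and was not called with Drosophila scaling (0.26, adjusted p = 0.0576), and CTR9 rose by 0.665 (SE 0.08, adjusted p = 1.77e-08). Under AZ5576 3 of the 11 rose and 2 fell, a total that dropped to 3 without DMSO replicate 3, 2 without AZ5576 replicate 1 and 3 without AZ5576 replicate 3, and under YKL5124 1 fell, NELFA, a subunit of NELF (2 without YKL5124 replicate 3). SUPT4H1, a subunit of DSIF, rose by 0.285 under AZ5576 (SE 0.06, adjusted p = 0.00058), which was not called with Drosophila scaling (0.09, adjusted p = 0.638). NELFA fell by 0.67 under YKL5124 (SE 0.08, adjusted p = 2.55e-07) and by 0.45 under AZ5576 (SE 0.08, adjusted p = 4.97e-05).

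MLLT1 and MLLT3 also bind DOT1L, the histone H3 lysine methyltransferase. DOT1L fell by 0.28 under AZ5576, 0.35 under THZ531 and 0.34 under YKL5124 (SE 0.07 each, adjusted p = 0.00307, 0.000146 and 0.000776), and its THZ531 call was lost when the rows of a gene were summed (-0.15, adjusted p = 0.0695). Its partner MLLT10 rose by 0.91 under THZ531 (SE 0.17, adjusted p = 3.79e-05), at 0.08 with rows summed (adjusted p = 0.635). MLLT6, another partner, rose by 0.23 under AZ5576 (SE 0.08, adjusted p = 0.0138), which was not called with library size alone (0.11), with Drosophila scaling (0.05), with no filter on low counts (0.21), with rows summed (0.15) or without AZ5576 replicate 1 (0.19). Of 6 chromatin partners of BET proteins, 4 fell and 1 rose under THZ531, and 3 fell and 2 rose under AZ5576, but with library size alone or Drosophila scaling none rose under either. Under YKL5124 4 fell and none rose, which became 2 with DESeq2, with rows summed or without DMSO replicate 1. NSD3, a methyltransferase bound by BET proteins, fell by 1.15 under THZ531 (SE 0.08, adjusted p = 1.36e-13) and rose by 0.24 under AZ5576 (SE 0.07, adjusted p = 0.00664), a rise not called with library size alone or Drosophila scaling. JMJD6, a hydroxylase bound by BET proteins, fell by 1.01 under AZ5576, 1.36 under THZ531 and 0.95 under YKL5124 (SE 0.11, 0.11 and 0.10, adjusted p = 4.95e-09, 8.62e-12 and 3.22e-08). EP300, an acetyltransferase whose marks BET proteins read, fell by 0.90 under AZ5576 (SE 0.12, adjusted p = 2.57e-07), fell by 0.84 under THZ531 (SE 0.12, adjusted p = 3.19e-07) and fell by 0.435 under YKL5124 (SE 0.11, adjusted p = 0.00388), the latter not called without DMSO replicate 1 (-0.34, adjusted p = 0.0504).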

How the data were processed

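Each of the 12 libraries was made by QuantSeq forward 3′ end sequencing with 5% of Drosophila S2 RNA added, per the labels' protocols. The deposited table gives whole-number counts in 295100 rows, with no normalisation. Among the tools in the submitters' processing notes are Trim Galore 0.6.5, bcl2fastq 2.17.1.14 and edgeR 3.32.1, and the genome builds there are dm6 and hg38. Which aligner, counting tool, annotation and strand setting were used is not given in the sources used here. Control columns carry a name that is in no label and were read as DMSO by elimination. Only total counts were used.

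Rows were named through GENCODE v29 (GRCh38). Rows without a name held 0.655% to 0.719% of a library's human counts and were left out. Rows overlap, so 1 row per gene was used, the one with the highest total over the 12 libraries, and 94 genes with counts identical to another gene's were dropped. edgeR 4.0.16 in R 4.3.3 tested groups by quasi-likelihood over all 12 libraries (filterByExpr, minimum count 10, TMM scaling), with Benjamini-Hochberg adjustment over 15831 genes and a threshold of 0.05. Log2 CPM used a prior count of 2. Row ratios had 0.5 added to each count before the log.

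The 9 members, the lists and the rules were chosen with earlier results of these data known. Beside the members, the 2 called genes of a list with the smallest adjusted p in a comparison with DMSO were named. The THZ531 values of EP300 and HEXIM2 and the AZ5576 value of NSD3 were added after they were seen. Distinct rows of a member with at least 5 CPM in a group were described, and the most alike gene had to average 10 CPM. DESeq2 1.42.0, other scalings, filters, rows and the omission of each library were alternatives. The chi-square per gene between libraries of 1 group was 1.73 to 5.00, above sampling noise, and each library counted once.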

Additional observations from a re-analysis of the deposited data

How the results depend on the processing

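The 9 genes gave 54 results over 6 comparisons, and 1296 values under alternatives. Of these, 1212 had the direction and the side of the threshold of the reported value, 40 were no longer called, 5 became called and 39 turned sign. None of the 39 was called, and 4 belong to values that were called as reported, all with Drosophila scaling: THZ531 against DMSO for AFF4 (-0.051) and MLLT1 (-0.00983), and THZ531 against YKL5124 for AFF4 (-0.0213) and MLLT1 (-0.0228). The others belong to values with no call. For AZ5576 against DMSO, BRD3, AFF1 and MLLT1 went to -0.0677, -0.0115 and -0.0325 with library size alone and to -0.135, -0.0742 and -0.0891 with Drosophila scaling. For AZ5576 against YKL5124, the same 3 genes went to -0.0846, -0.0663 and -0.0873 with library size alone and to -0.104, -0.0808 and -0.102 with Drosophila scaling, and MLLT1 to -8.99e-05 with RLE scaling and -0.000149 with DESeq2. For THZ531 against DMSO, ELL went to 0.00926 with rows summed. For YKL5124 against DMSO, BRD3 and AFF4 went to -0.0302 and -0.0297 with Drosophila scaling, and EAF1 to 0.00195 with RLE scaling, 0.00476 with DESeq2 and 0.000565 with rows summed. With 1 library left out, sign turns fell within the ranges -0.149 to 0.0109 for BRD2, -0.00273 to 0.118 for AFF1, -0.0273 to 0.104 for AFF4, -0.252 to 0.0541 for ELL2 and -0.113 to 0.0201 for EAF1 (YKL5124 against DMSO), and -0.0243 to 0.0848 for BRD3, -0.0303 to 0.121 for AFF1 and -0.0248 to 0.0577 for MLLT1 (AZ5576 against YKL5124). The number of members called, THZ531 against YKL5124, was 5 with Drosophila scaling in place of 9. For THZ531 against DMSO it was 6 at the lowest, in place of 8. With 1 library left out, it ranged from 1 to 2 for YKL5124 against DMSO and from 3 to 5 for AZ5576 against YKL5124. The number of all genes called stayed within 1.5 times of the reported one in every alternative run. The share of calls that were higher was 44.7% for AZ5576, 48% for THZ531 and 34.9% for YKL5124 against DMSO, 21.9%, 23.2% and 30.2% with library size alone, and 10.3%, 13.2% and 21.1% with Drosophila scaling. For AZ5576 against THZ531 it was 50.6%, 67.2% and 70.2% under the 3 scalings in that order, for AZ5576 against YKL5124 39.4%, 10.2% and 7.48%, and for THZ531 against YKL5124 50%, 25.3% and 20.2%. For the 34 results of named pathway genes, 757 of 782 values were as reported, 25 were no longer called and none turned sign. The row of a protein-coding transcript as an alternative was chosen after seeing the data. Which factor lies behind each change was not tested.

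Replicate numbers are shared between groups, but the labels do not say what they mark. Same-numbered libraries did not deviate together: 18 correlations of deviations ran from -0.102 to 0.0724, and 2 of 12 libraries were most alike to their own number. With the replicate block, 6, 8 and 2 members were called under AZ5576, THZ531 and YKL5124 against DMSO, and no call of a member changed.

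ELL2 and MLLT3 rest on 16 to 150 counts per library.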
